A study of Mus musculus with 74 samples.

Results

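Foxf1, Foxf2, Hlx, Hand1, Hand2, Nr2f1, Nr2f2, Osr1 and Mab21l2 are 9 regulators known from the septum transversum and the mesenchyme that derives from it, taken by name from a table of 30323 mouse genes counted in 74 single cells. The table gave each gene by its Ensembl identifier, and all 9 were matched to a row. The cells came from the pro-epicardial organ of C57BL/6 mouse embryos at embryonic day 9.5, carried the genotype Tbx18Cre;mTmG and were isolated by flow cytometry. In such embryos a Cre recombinase under the control of Tbx18 switches a membrane reporter from red to green, so the sorted population depends on where and when Tbx18 had been active. The labels put all 74 cells into 1 group and name no embryo, litter or batch. The cells were therefore treated as 1 sample, and every comparison between classes of cells below is a description with no test.

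The septum transversum is the sheet of mesoderm between the heart and the liver bud. The pro-epicardial organ grows from its surface and supplies the epicardium, and its inner mesenchyme surrounds the liver bud and gives rise to hepatic stellate cells. Foxf1 and Foxf2 are forkhead factors of splanchnic mesoderm that lie downstream of hedgehog signalling, and Hlx is a homeobox factor that the mouse liver and gut need in their mesenchyme in order to grow. Hand1 and Hand2 are basic helix-loop-helix (bHLH) factors of heart and lateral mesoderm. Nr2f1 and Nr2f2, also called COUP-TFI and COUP-TFII, are orphan nuclear receptors, and Osr1 is a zinc finger factor of lateral and intermediate mesoderm. Mab21l2, a Mab21-family protein that the mouse embryo needs to form the pro-epicardial organ and to grow the liver, is not known as a classical DNA-binding factor. Lhx2 and Lhx9 are related LIM homeobox factors. Lhx2 is known from liver mesenchyme and Lhx9 from mesothelium and gonad, and their levels are used below to order the cells.

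Between 216177 and 2618538 estimated counts were assigned per cell, with a median of 849718, and a median of 7858.5 genes reached 5 counts. A gene counts as detected where a cell has at least 5 counts, and levels are given as CPM, the gene's counts scaled to the cell's total. The cells carried markers of the tissue, with Gata4 detected in 74, Tbx18 in 69, Tcf21 in 63 and Wt1 in 60. When the cells were clustered with the 9 genes, Lhx2 and Lhx9 left out, they formed 3 groups. A group of 32 cells had 13 of 14 epicardial and mesothelial markers detected in 50% of its members or more, and it is called mesothelial-like. A group of 10 cells likewise had 10 of 12 markers of heart muscle detected and is called cardiomyocyte-like. The other 32 cells had as leading genes Lhx2, Tmem119, Shisa3, Adamts2 and Dkk1 and are called the Tmem119-high cluster, with no cell type name. Of 7 endothelial markers, 4 were detected in some cells, 3 of them in 50% of the 74 cells or more. The others, Cdh5, Tie1 and Emcn, were detected in none. Of 8 markers of hepatoblasts and foregut endoderm, 5 were detected in some cells, 0 of them in 50% of cells or more. The others, Afp, Hnf4a and Foxa2, were detected in none of the 74 cells. A count of 0 in 74 cells allows a share of up to 4.05%, taken as 3 cells of 74.

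The 9 genes did not form a single pattern. Nr2f2, Mab21l2, Hand2 and Nr2f1 were detected in 71, 69, 65 and 58 of the 74 cells, in all 3 clusters. Hand1, Foxf1 and Hlx were detected in 29, 19 and 16 cells. Osr1 reached 5 counts in 4 cells and Foxf2 in 2, so these genes fall below the minimum of 10% of cells (8 cells) used for any comparison, and 7 of the 9 genes remain. In percent of cells with the exact 95% binomial interval, detection was 95.9% (88.6 to 99.2) for Nr2f2, 39.2% (28.0 to 51.2) for Hand1, 25.7% (16.2 to 37.2) for Foxf1 and 21.6% (12.9 to 32.7) for Hlx. These intervals cover counting error only, because reads without molecular identifiers are not independent molecules.

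Promoter sequences are shown for Hlx and Lhx2, since nearly all Hlx cells had Lhx2 in the results below, and for the widely detected Hand2 and Nr2f2. Entries in the RefSeq promoter table (GRCm38.p6) were found for 8 of the 11 genes looked up and 6 of the 9 regulators. Foxf1, Hand1 and Osr1 were not matched. In each promoter the 250 bases before the transcription start were searched on both strands for GATAA (GATA factors), CANNTG (the E-box of bHLH factors), TGTTTA (forkhead), TAATTA (LIM homeodomain) and AGGTCA (nuclear receptor half-site). The sequences below run 5′ to 3′ on the gene's strand, matches are in capitals, and only bases outside the annotated gene are printed. Hlx is given for chr1:184732620-184732743 (minus strand), Lhx2 for chr2:38339031-38339280 (plus strand), Hand2 for chr8:57320733-57320982 (plus strand) and Nr2f2 for chr7:70366747-70366996 (minus strand).
Hlx: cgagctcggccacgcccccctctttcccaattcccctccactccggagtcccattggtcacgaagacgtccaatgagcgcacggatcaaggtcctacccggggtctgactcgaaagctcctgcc
Lhx2: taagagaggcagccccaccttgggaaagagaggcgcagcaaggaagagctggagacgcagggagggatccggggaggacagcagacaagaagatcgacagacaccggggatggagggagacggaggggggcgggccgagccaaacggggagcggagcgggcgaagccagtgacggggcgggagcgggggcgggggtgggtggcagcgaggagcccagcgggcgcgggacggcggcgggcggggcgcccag
Hand2: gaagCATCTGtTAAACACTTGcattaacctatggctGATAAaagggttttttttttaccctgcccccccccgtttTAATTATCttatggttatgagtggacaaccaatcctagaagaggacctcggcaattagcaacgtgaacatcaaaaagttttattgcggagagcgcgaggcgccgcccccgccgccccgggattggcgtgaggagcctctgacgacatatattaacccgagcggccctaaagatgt
Nr2f2: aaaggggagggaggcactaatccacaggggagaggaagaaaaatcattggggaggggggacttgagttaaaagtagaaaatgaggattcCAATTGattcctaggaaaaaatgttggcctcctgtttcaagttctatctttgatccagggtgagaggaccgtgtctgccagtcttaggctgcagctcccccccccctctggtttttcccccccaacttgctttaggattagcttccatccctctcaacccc
Hand2 held 2 GATAA, 2 CANNTG, 1 TGTTTA and 1 TAATTA matches, and in the sequence above its forkhead match overlaps an E-box and its TAATTA overlaps a GATAA on the other strand. Nr2f2 held 1 CANNTG match. Hlx and Lhx2 held 0 matches to any of the 5 motifs in this window, as did Mab21l2, and Foxf2 held 1 CANNTG match. Nr2f1 had 2 promoter entries, of which 1 held no match and the other 2 CANNTG and 1 TGTTTA, and Lhx9 held 1 GATAA and 1 CANNTG match. The windows searched for both Nr2f1 entries, Lhx9, Mab21l2 and a second Lhx2 entry lay wholly inside the annotated gene. For Hlx 126 of the 250 bases did. Among 32851 promoters in the table, 66.2% held CANNTG, 22.6% GATAA, 14.0% AGGTCA, 12.0% TGTTTA and 4.84% TAATTA. A match is a description of letters, not of binding.

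Foxf1 (chromosome 8, 121084386 to 121088144, plus strand, GRCm38) had a level of 41.4 ± 105 CPM (mean ± SD over 74 cells), with 0 CPM at the lowest and at the median and 539.7 CPM at the highest. The 10 cells with most Foxf1 held 86.2% of its summed CPM. Foxf1 thus was not detected in most cells and was abundant in a few. In its 19 cells it ranged from 12.6 CPM up, with a median of 114 CPM, and 50 cells had no count. Foxf2, its paralogue on chromosome 13, averaged 0.507 ± 3.34 CPM, and a single cell at 28.4 CPM held most of it. Both cells with Foxf2 were also Foxf1 cells.

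Hlx (chromosome 1, 184727140 to 184732619, minus strand) averaged 12.8 ± 33.1 CPM over the 74 cells, with 0 CPM at the lowest and the median and 178 CPM at the highest. The 10 highest cells held 85.9% of the total. Of the 58 cells in which Hlx was not detected, 9 had 1 to 4 counts and 49 had none. Hand1 (chromosome 11, 57828705 to 57832818, minus strand) averaged 26.02 ± 61.3 CPM, again with a median of 0 CPM, and reached 329.7 CPM. Its 10 highest cells held 79.7% of the total.

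Hand2 (chromosome 8, 57320983 to 57324633, plus strand), by contrast, had 0 CPM at the lowest, 23.0 CPM at the median and 87.6 CPM at the highest, and averaged 24.4 ± 14.6 CPM. The 10 cells with most Hand2 held 28.1% of its total, so Hand2 was spread far more evenly over the cells than Hand1. Per kilobase of exon, the scale on which genes of different length can be set side by side, Hand1 averaged 13.0 ± 30.7 CPM per kb and Hand2 10.4 ± 6.23 CPM per kb. Within single cells Hand2 was the higher of the pair in 54 cells and Hand1 in 19.

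Nr2f1 (chromosome 13, 78188973 to 78199757, minus strand) ranged from 0 to 327.2 CPM with a median of 47.9 CPM. Nr2f2 (chromosome 7, 70351944 to 70366735, minus strand) ranged from 1.14 to 278.7 CPM with a median of 74.1 CPM. Every cell had at least 1 of these nuclear receptors detected. Per kilobase, Nr2f1 averaged 13.4 ± 14.7 CPM per kb and Nr2f2 9.39 ± 6.29 CPM per kb. Nr2f1 exceeded Nr2f2 on that scale in 24 of 32 Tmem119-high cells, 8 of 32 mesothelial-like cells and 8 of 10 cardiomyocyte-like cells. The third receptor of the family, Nr2f6, was detected in all 74 cells at 107 ± 55.6 CPM.

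Mab21l2 (chromosome 3, 86545581 to 86548629, minus strand) had the highest level of the 9 genes per kilobase, 43.9 CPM per kb. It averaged 134 ± 111 CPM, with 0 CPM at the lowest, 97.0 CPM at the median and 536.3 CPM at the highest. It was detected in 28 of 32 Tmem119-high, 31 of 32 mesothelial-like and 10 of 10 cardiomyocyte-like cells. Its paralogue Mab21l1 had no count in any cell. Osr1 (chromosome 12, 9570116 to 9581500, plus strand) averaged 1.38 ± 4.49 CPM. It had 1 to 4 counts in 14 cells beside the 4 in which it was detected, and its paralogue Osr2 was detected in 13 cells, 12 of them mesothelial-like.

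The mean levels per kilobase followed the order Mab21l2 (43.9), Foxf1 (17.1), Nr2f1 (13.4), Hand1 (13.0), Hand2 (10.4), Nr2f2 (9.39), Hlx (5.61), Osr1 (0.666) and Foxf2 (0.215 CPM per kb). Each neighbouring pair in that order differed by less than the SD over cells of the higher gene. Some levels may be shared with overlapping genes. Mab21l2 lies on the opposite strand within Lrba, and 34.3% of the 31-base words of its transcripts also occur in Lrba, which was detected in 13 cells at 2.51 CPM. Of the Hand2 words 17.4% are shared with other genes, mainly Hand2os1, and of the Nr2f2 words 8.12%. Hand1 shared none.

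**Figure D1:**
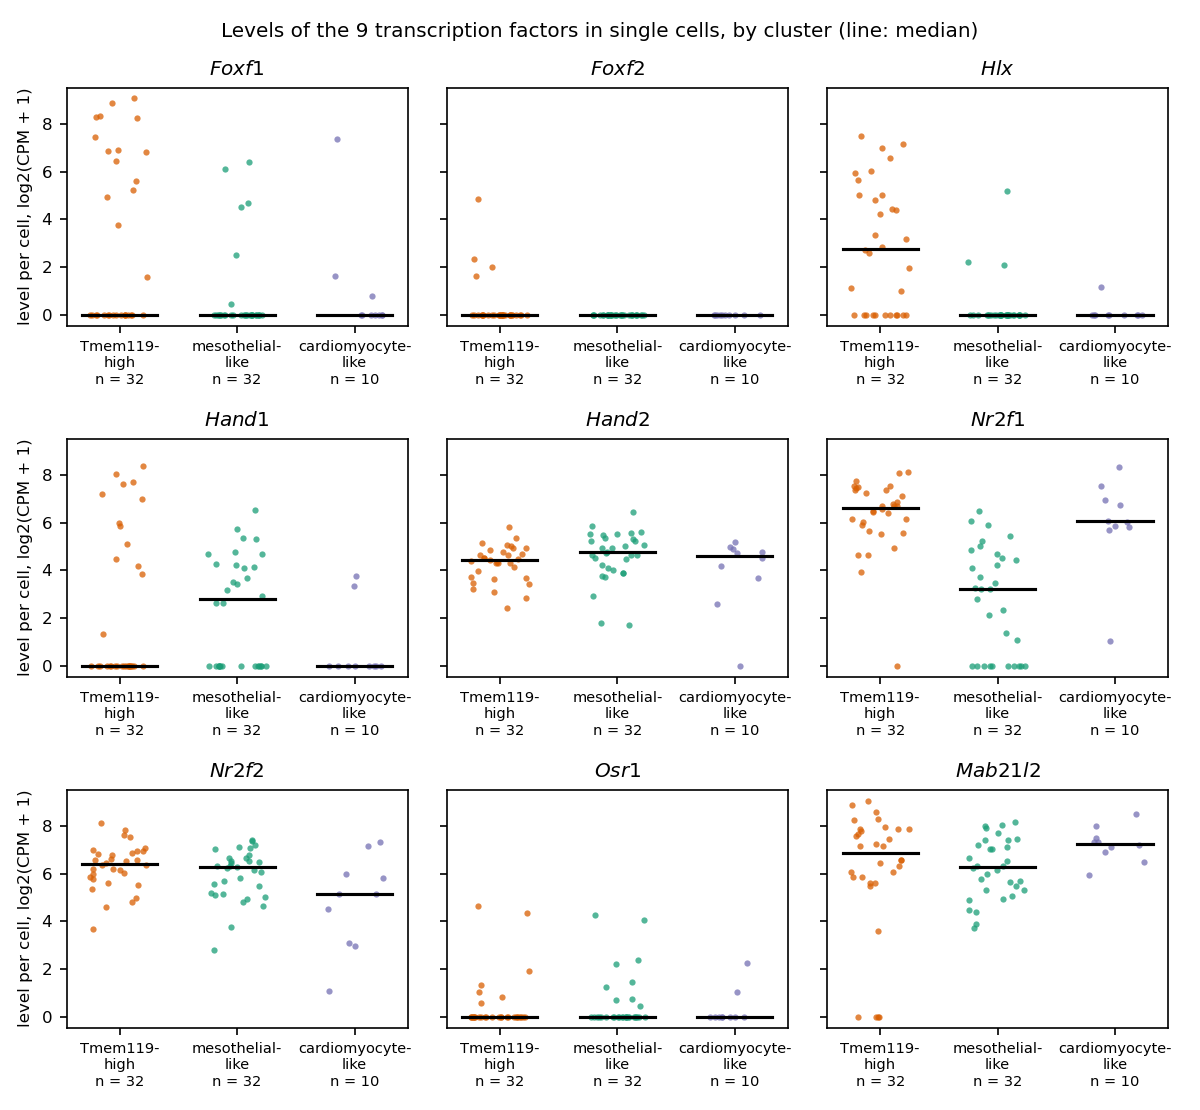
Level of each of the 9 genes in each cell, as log2(CPM + 1) on the vertical axis, for the Tmem119-high (n = 32), mesothelial-like (n = 32) and cardiomyocyte-like (n = 10) clusters. Points are cells and lines are medians. Hand2, Nr2f2 and Mab21l2 lie above 0 in nearly all cells, while Foxf1, Hlx and Hand1 are at 0 in most cells and their highest cells are in the Tmem119-high cluster.

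Foxf1, Hlx and Hand1 were found in the same cells more often than the product of their shares gives. Foxf1 and Hlx were detected together in 12 cells, against 4.11 cells from the product, a ratio of 2.92. Foxf1 and Hand1 were together in 14 cells (ratio 1.88), and Hlx and Hand1 in 12 cells (ratio 1.91). Of the 16 Hlx cells 75% had Foxf1, and of the 19 Foxf1 cells 63.2% had Hlx. The other 18 pairs among the 7 genes had ratios between 0.836 and 1.20, with a median of 1.01. The lowest was that of Hand1 with Nr2f1, which were together in 19 cells. For Hand2, Nr2f2 and Mab21l2 a ratio near 1 is fixed in part by their detection in most cells.

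All of Foxf1, Hlx and Hand1 were detected in 10 cells, and all 10 lay in the Tmem119-high cluster. In these cells Foxf1 had 12.6 CPM at the lowest, 238 CPM at the median and 539.7 CPM at the highest, Hlx had 17.9, 62.8 and 178 CPM, and Hand1 had 17.4, 137 and 329.7 CPM. Lhx2 was detected in 9 of the 10, with a median of 163 CPM and a highest level of 620 CPM. No cell carried all of the 9 genes. A cell had between 2 and 8 of them, with a median of 4. The cells with 7 or more were the same 10 cells that had Foxf1, Hlx and Hand1, so this is no further observation. The number of genes per cell and the cell's total count had a Spearman rho of 0.27 over the 74 cells.

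The 10 cells were deeper than the rest of their cluster, with a median total of 1277577 counts, against 884008 in the other 22 Tmem119-high cells. They were compared with those 22 cells after their values were seen, and the rule used Foxf1, Hlx and Hand1. Of all 11511 genes open to comparison, 9.89% were at least 2-fold higher in the 10 cells and 10.4% at least 2-fold lower. Nr2f1 averaged 89.4 ± 69.4 CPM in the 10 cells and 119 ± 72.9 CPM in the 22, Nr2f2 93.7 ± 54.1 and 95.5 ± 63.2 CPM, Hand2 23.5 ± 13.6 and 20.1 ± 9.56 CPM, and Mab21l2 179 ± 174 and 143 ± 120 CPM. These 4 genes were within 2-fold, with overlapping ranges.

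Other genes of the septum transversum differed in mean between the 10 cells and the 22, and those named here were chosen after their values were seen. Alcam, a cell adhesion molecule of septum transversum mesenchyme, averaged 520 ± 325 CPM in the 10 cells and 143 ± 100 CPM in the 22. Pdgfrb, a growth factor receptor of mesenchymal and perivascular cells, averaged 70.8 ± 52.6 and 26.7 ± 27.2 CPM. Tbx18 was lower, at 86.1 ± 99.0 CPM in the 10 cells and 194 ± 95.5 CPM in the 22, and so was the Wnt ligand gene Wnt2, at 104 ± 101 and 537 ± 492 CPM. Of 16 septum transversum and liver mesenchyme genes compared, 2 were past 2-fold higher and 6 lower, with a median log2 fold of -0.02, against 0.04 over all genes.

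Of 5 hedgehog reception genes compared, Ptch1 and Gli1, which are themselves hedgehog targets, were past 2-fold higher in the 10 cells and none was lower. Ptch1 was detected in 7 of the 10 cells and 6 of the 22, at 31.1 ± 39.8 and 4.23 ± 7.16 CPM, and Gli1 in 4 of the 10 and 1 of the 22. The difference in depth moves with these counts, and its part in them was not tested. Among cardiomyocyte markers 6 of 10 were lower in the 10 cells and 0 higher, and among mesothelial markers 8 of 13 were lower and 1 higher. Actc1, a cardiac and early muscle actin, had a median of 0 CPM in the 10 cells and 395 CPM in the 22.

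**Figure D2:**
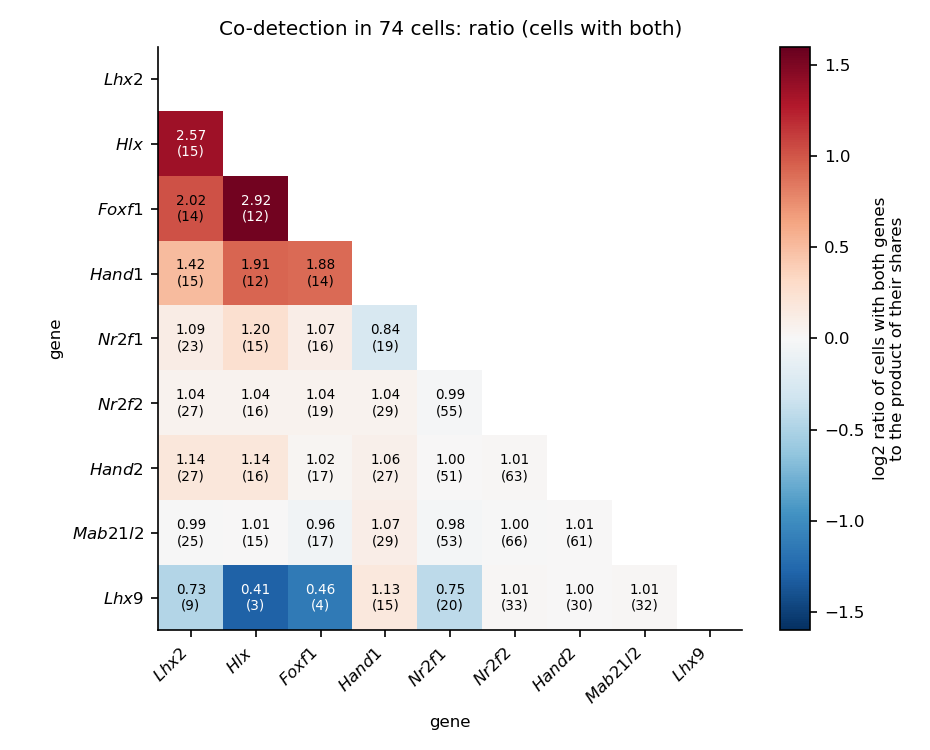
Co-detection of gene pairs in the 74 cells for the 7 genes compared, Lhx2 and Lhx9. Each square gives the ratio of cells with both genes to the product of their shares, with the number of cells with both in brackets, and the colour is the log2 of the ratio. The pairs among Lhx2, Hlx, Foxf1 and Hand1 have ratios from 1.42 to 2.92, and Lhx9 with Hlx and with Foxf1 has 0.41 and 0.46.

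Lhx2 was detected in 27 cells and Lhx9 in 34. Both were found in 9 cells, against 12.4 from the product of their shares. This leaves 18 cells with Lhx2 only, 25 with Lhx9 only and 22 with neither. The Lhx2-only cells were deeper, with a median total of 1272715.5 counts, than the Lhx9-only cells with 832884. Lhx2-only cells lay mainly in the Tmem119-high cluster (16 of 18) and Lhx9-only cells in the mesothelial-like cluster (24 of 25). The cells with neither comprised 12 Tmem119-high, 1 mesothelial-like and 9 cardiomyocyte-like cells.

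**Figure D3:**
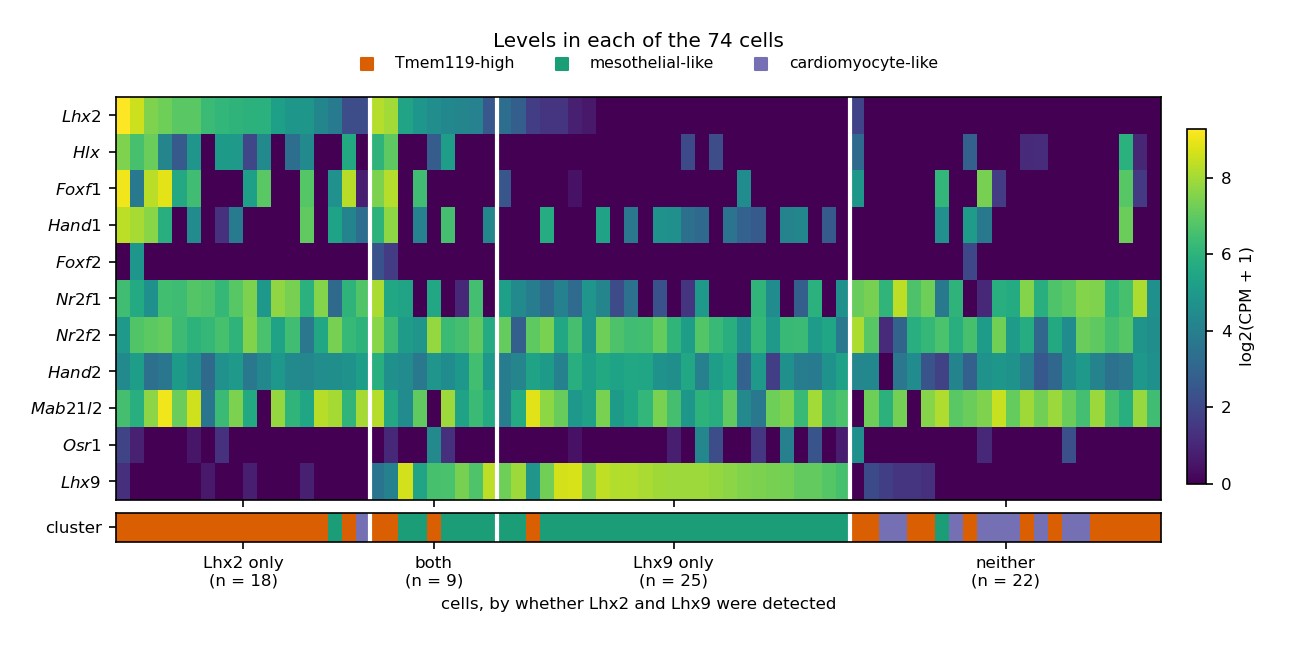
Level of each gene, as log2(CPM + 1), in each of the 74 cells (columns), ordered by whether Lhx2 and Lhx9 were detected, with the cell's cluster in the lower strip. Hlx, Foxf1 and Hand1 are brightest at the left, among the Lhx2-only cells with most Lhx2, and Nr2f1 is dimmest among the 25 Lhx9-only cells.

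At 5 or more counts, Hlx was nearly confined to cells with Lhx2. Another 9 cells had 1 to 4 Hlx counts, and most of these had no count of Lhx2. Hlx was detected in 15 of 27 cells with Lhx2 and in 1 of 47 cells without. Its level was 0 CPM at the lowest, 9.18 CPM at the median and 178 CPM at the highest with Lhx2, and 0, 0 and 60.2 CPM without. The ranges overlap from 0 to 60.2 CPM, since Hlx was not detected in 12 cells with Lhx2 and the 1 cell without Lhx2 that had Hlx lay above the median of the cells with Lhx2. Mean levels were 31.9 ± 48.4 and 1.80 ± 8.85 CPM (SD over cells), a ratio of 17.7. Foxf1 was detected in 14 of 27 cells with Lhx2 and in 5 of 47 without, at 98.2 ± 155 and 8.80 ± 30.9 CPM, an 11.2-fold difference. Hand1 was detected in 15 of 27 and 14 of 47 cells, at 54.5 ± 90.7 and 9.63 ± 23.7 CPM, a 5.66-fold difference. Without the highest of the 47 cells for each gene, the ratios were 60.0 for Hlx, 18.3 for Foxf1 and 8.21 for Hand1. Leaving out the highest of the 27 cells with Lhx2 instead makes each ratio smaller than with all cells.

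Of the 7 genes, 3 were thus past 2-fold higher in cells with Lhx2 and 0 were lower, where 4.26% of all genes were past 2-fold higher and 5.15% lower. Without the cardiomyocyte-like cells the same 3 genes were higher, where 4.81% of all genes were higher and 4.85% lower. Nr2f1, Nr2f2, Hand2 and Mab21l2 were within 2-fold. Their means were 82.9 ± 70.2, 90.9 ± 53.9, 26.4 ± 15.6 and 143 ± 134 CPM in cells with Lhx2, against 60.1 ± 76.7, 75.3 ± 54.2, 23.3 ± 14.1 and 128 ± 97.4 CPM in cells without. The median total was 1173021 counts in cells with Lhx2 and 788465 in cells without. Of 13 mesothelial markers compared, 5 were past 2-fold lower in cells with Lhx2 and 0 higher, and of 10 cardiomyocyte markers 7 were lower and 0 higher. All 4 smooth muscle markers compared were lower and all 3 blood markers higher. The part of these markers in the fold changes was not tested. With counts drawn down to 354002 in each of 66 cells, Hlx averaged 37.0 ± 55.1 CPM in 23 cells with Lhx2 and 2.56 ± 10.3 CPM in 43 without, Foxf1 105 ± 161 and 17.9 ± 62.1 CPM, and Hand1 64.5 ± 100.4 and 10.7 ± 21.5 CPM. The 3 genes stayed past 2-fold higher at that equal total, with log2 folds of 3.85, 2.56 and 2.59.

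With Lhx9 the picture differed. Nr2f1 was detected in 20 of 34 cells with Lhx9 and in 38 of 40 cells without, with a median of 9.30 CPM with Lhx9 and 90.7 CPM without. Its means were 25.8 ± 49.1 and 105 ± 74.1 CPM. The ranges overlap, as Nr2f1 reached 273 CPM in a cell with Lhx9 and was at 0 CPM in a cell without. Foxf1 was detected in 4 of 34 and 15 of 40 cells, at 17.3 ± 60.3 and 61.9 ± 129 CPM. Hlx was detected in 3 of 34 and 13 of 40 cells, at 7.00 ± 24.3 and 17.7 ± 38.7 CPM. The ratio of means, cells with Lhx9 over cells without, was 0.246 for Nr2f1, 0.280 for Foxf1 and 0.396 for Hlx. For Foxf1 and Hlx it depended on single cells, since without the highest cell with Lhx9 it was 0.139 and 0.194, and without the highest cell lacking Lhx9 it was 0.349 and 0.515, the last within 2-fold.

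These 3 genes were past 2-fold lower in cells with Lhx9 and 0 of the 7 were higher, where 9.46% of all genes were lower and 5.20% higher. When a single count was enough to call Lhx9 detected, none of the 3 was past 2-fold, with log2 folds of -0.95 for Foxf1, -0.68 for Hlx and -0.95 for Nr2f1. Hand1 was within 2-fold, at 18.6 ± 39.2 CPM with Lhx9 and 32.4 ± 75.1 CPM without, a ratio of 0.574. It was past 2-fold lower (0.397) without its highest cell with Lhx9. Leaving out its highest cell lacking Lhx9, at 329.7 CPM, moves the ratio up instead, and Hand1 stays within 2-fold. Without the cardiomyocyte-like cells Hand1 was past 2-fold lower as well, at 18.6 ± 39.2 CPM with Lhx9 and 42.4 ± 84.7 CPM without, so that 4 genes were lower, where 8.91% of all genes were lower and 5.45% higher. Hand2 averaged 30.9 ± 17.0 CPM with Lhx9 and 18.9 ± 9.43 CPM without, and Nr2f2 82.3 ± 52.5 and 80.0 ± 56.3 CPM. Of 13 mesothelial markers 11 were past 2-fold higher in cells with Lhx9, and all 10 cardiomyocyte markers compared were lower. The part of these cell types in the Lhx9 differences was not tested in that split.

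The cells with Lhx2 only and those with Lhx9 only differed most. Foxf1 was detected in 11 of 18 Lhx2-only cells and 1 of 25 Lhx9-only cells, with means of 116 ± 174 and 1.08 ± 4.47 CPM. Hlx was detected in 12 of 18 and 0 of 25, with means of 35.0 ± 51.5 and 0.274 ± 0.951 CPM. The 0 of 25 allows a share of up to 12.0%, taken as 3 cells of 25, and no fold is given for Hlx here, because its level in Lhx9-only cells rests on a few counts. Nr2f1 was detected in 18 of 18 and 15 of 25 cells, at 96.8 ± 57.7 and 15.2 ± 18.1 CPM, a ratio of 6.38.

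Hand1 was detected in equal numbers, 10 of 18 Lhx2-only and 10 of 25 Lhx9-only cells, but at other levels. It reached 329.7 CPM in Lhx2-only cells and 52.7 CPM in Lhx9-only cells, with means of 59.8 ± 101 and 9.39 ± 13.7 CPM, a 6.37-fold difference. Its medians were 11.2 and 5.18 CPM. Of the 7 genes 4 were past 2-fold higher in Lhx2-only cells and 0 lower, where 11.7% of all genes were higher and 7.66% lower. Hand2 averaged 22.4 ± 8.45 and 29.6 ± 14.6 CPM, Nr2f2 85.4 ± 45.2 and 75.2 ± 44.4 CPM, and Mab21l2 164 ± 144 and 107 ± 101 CPM, each within 2-fold. Of the 13 mesothelial markers 10 were lower in Lhx2-only cells and 0 higher. Of 10 cardiomyocyte markers 8 were higher and 0 lower. Of 8 fibroblast markers 5 were higher and 1 lower, and of 4 smooth muscle markers 3 were higher and 0 lower. Among the 18 Lhx2-only cells, 1 was cardiomyocyte-like. Without each gene's highest Lhx2-only cell, Actc1, Tnnt2, Ttn and Cnn1 were not past 2-fold higher. The ratio was then 1.68 for Tnnt2 and 0.733 for Ttn. Myh6, Tnnc1, Myl4, Actn2, Csrp3, Acta2 and Myocd stayed past 2-fold higher. The part of these markers in the differences was not tested.

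At the same drawn-down total, for which 8 of the 74 cells were too shallow, 17 cells had Lhx2 only and 22 had Lhx9 only. Foxf1 was then detected in 11 of 17 Lhx2-only and 1 of 22 Lhx9-only cells, Hlx in 10 and 0, Hand1 in 8 and 8, and Nr2f1 in 16 and 8. The thinned means of Hand1 were 77.4 ± 113 CPM in Lhx2-only and 11.9 ± 14.2 CPM in Lhx9-only cells.

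**Figure D4:**
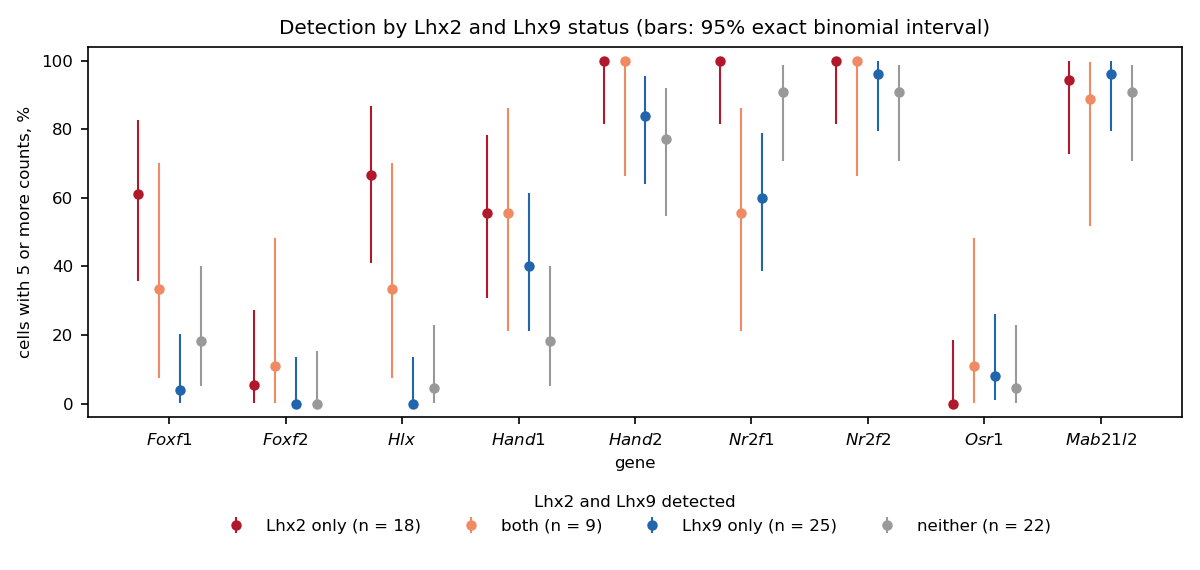
Percent of cells in which each gene reached 5 counts (vertical axis), for cells with Lhx2 only (n = 18), both (n = 9), Lhx9 only (n = 25) and neither (n = 22). Bars are 95% exact binomial intervals that cover counting error only. Hlx stands at 66.7% in Lhx2-only and 0% in Lhx9-only cells, Foxf1 at 61.1% and 4.00%, while Nr2f2 and Mab21l2 lie at 88.9% or more in all 4 classes.

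In the 9 cells with both Lhx2 and Lhx9, Foxf1 and Hlx were each detected in 3, Hand1 in 5 and Nr2f1 in 5. The shares with Foxf1 and Hlx lay between those of the Lhx2-only and Lhx9-only cells, the share with Hand1 (55.6%) equalled that of the Lhx2-only cells, and the share with Nr2f1 (55.6%) was below both. Mean levels were 62.4 ± 109 CPM for Foxf1, 25.7 ± 43.6 CPM for Hlx, 44.0 ± 69.2 CPM for Hand1 and 55.2 ± 87.3 CPM for Nr2f1. Single cells carried much of these means, which were 32.2, 13.3, 23.7 and 28.0 CPM without the highest cell for each gene. In the 22 cells with neither gene, Foxf1 was detected in 4, Hlx in 1 and Hand1 in 4, while Nr2f1 was detected in 20 at 111 ± 86.0 CPM. The level of Nr2f1 in cells with neither was thus close to the 96.8 ± 57.7 CPM of the Lhx2-only cells. Hand2 had its lowest mean there, 16.1 ± 9.39 CPM.

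The clusters, drawn without these genes, showed the same grouping. Hlx was detected in 15 of 32 Tmem119-high cells and in 1 of the 42 others, and Foxf1 in 14 of 32 and 5 of 42. Foxf1, Hlx, Hand1 and Nr2f1 were past 2-fold higher in the Tmem119-high cluster than in all other cells, and 0 of the 7 genes were lower, where 6.78% of all genes were higher and 5.89% lower. The same 4 genes were past 2-fold lower in the mesothelial-like cluster, where 10.5% of all genes were lower and 5.12% higher. In the cardiomyocyte-like cluster Foxf1, Hlx and Hand1 were lower, where 17.2% of all genes were lower and 8.29% higher. These comparisons share cells, so they are not separate observations.

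Nr2f1 was high in the cardiomyocyte-like cells as well, with 104 ± 93.1 CPM in that cluster and 62.9 ± 70.7 CPM in the other cells. Its mean was 109 ± 72.0 CPM in the Tmem119-high cells and 16.2 ± 22.1 CPM in the mesothelial-like cells. Nearly all Foxf1 of the cardiomyocyte-like cluster lay in 1 cell at 166.7 CPM, and the ratio of means to other cells was 0.375 with that cell and 0.0068 without it. Mab21l2 averaged 167 ± 85.6 CPM in the cardiomyocyte-like cluster, 154 ± 137 CPM in the Tmem119-high cluster and 103 ± 80.4 CPM in the mesothelial-like cluster. Nr2f2 had its lowest mean in the cardiomyocyte-like cluster, 52.5 ± 55.7 CPM, against 85.5 ± 53.1 CPM in the other cells, a ratio of 0.615 that was 0.477 without the highest of the 10 cells.

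Hand1 cells fell into both large clusters. It was detected in 12 Tmem119-high and 15 mesothelial-like cells, and 13 of its 29 cells had neither Foxf1 nor Hlx. Of those 13, 11 were mesothelial-like and 10 had Lhx9 only. The highest level was 329.7 CPM in the Tmem119-high cluster and 92.3 CPM in the mesothelial-like cluster, with means over all cells of the cluster of 46.1 ± 87.6 and 13.3 ± 20.0 CPM. The share of cells with Hand1 was 37.5% in the Tmem119-high cluster and 46.9% in the mesothelial-like cluster, and the exact 95% intervals of 21.1 to 56.3% and 29.1 to 65.3% overlap.

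Correlations over cells are given as descriptions, since all cells share 1 sample, their depths and their failed detections. Over the 74 cells the Spearman rho with Lhx2 was 0.57 for Hlx, 0.49 for Foxf1 and 0.27 for Hand1, where 2.68% of all genes had a rho of at least 0.3 with Lhx2 and 1.90% a rho of -0.3 or below. With Lhx9 it was -0.58 for Nr2f1, -0.39 for Mab21l2, -0.38 for Hlx and -0.36 for Foxf1, where 5.17% of all genes were at -0.3 or below. Hand2 had 0.31 with Lhx9, where 7.61% of all genes were at 0.3 or above, and Hand1 had 0.02. Among the 9 genes, Foxf1 and Hlx had 0.54, Foxf1 and Hand1 0.46, Hlx and Hand1 0.43, and Hand1 and Nr2f1 -0.31.

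The Lhx2 relation was also present when the Tmem119-high cluster was taken by itself. Over its 32 cells the rho with Lhx2 was 0.68 for Hlx, 0.60 for Foxf1 and 0.57 for Hand1. In that cluster Hlx was detected in 14 of 19 cells with Lhx2 and 1 of 13 without, at 43.4 ± 53.3 and 5.89 ± 16.5 CPM. Foxf1 was detected in 12 of 19 and 2 of 13, at 134 ± 173 and 11.4 ± 32.8 CPM, and Hand1 in 10 of 19 and 2 of 13, at 68.2 ± 104 and 13.9 ± 41.1 CPM. The ranges overlap for each gene, as cells without Lhx2 reached 60.2 CPM of Hlx, 117 CPM of Foxf1 and 147 CPM of Hand1. The medians in cells with Lhx2 were 20.6, 47.7 and 13.3 CPM, and those in cells without were 0 CPM. Nr2f1 averaged 105 ± 68.2 and 116 ± 79.6 CPM. The 19 cells with Lhx2 were deeper, with a median total of 1268868 counts, against 826085 in the 13 without. Actc1 had a median of 0 CPM in the 19 cells and 1018 CPM in the 13. The part of depth and of muscle genes in these differences was not tested. In the mesothelial-like cluster Lhx2 was detected in 7 of 32 cells, and Hlx in 1 of those 7. Over these 32 cells the rho with Lhx2 was 0.02 for Hlx, 0.26 for Foxf1 and -0.06 for Hand1. Hlx was detected in 1 cell of this cluster in all, so its rho says little. Hand1 was detected in 4 of 7 cells with Lhx2 and 11 of 25 without. Its means there were 23.9 ± 33.6 and 10.4 ± 13.9 CPM, past 2-fold, with 92.3 CPM in the highest of the 7 cells. Foxf1 was detected in 2 of 7 and 2 of 25, at 15.6 ± 31.8 and 3.85 ± 14.3 CPM.

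The Nr2f1 relation with Lhx9 was not seen inside a cluster. Its rho with Lhx9 was -0.08 over the 32 Tmem119-high cells and -0.03 over the 32 mesothelial-like cells, against -0.58 over all 74. Lhx9 was detected in 4 of the Tmem119-high and 30 of the mesothelial-like cells, so each cluster spans a narrow part of its detection. Mab21l2 had -0.44 and Hand2 0.37 with Lhx9 over the 32 mesothelial-like cells, where they were detected in 31 and 27 cells, and Foxf1, detected in 4 of them, had -0.35.

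**Figure D5:**
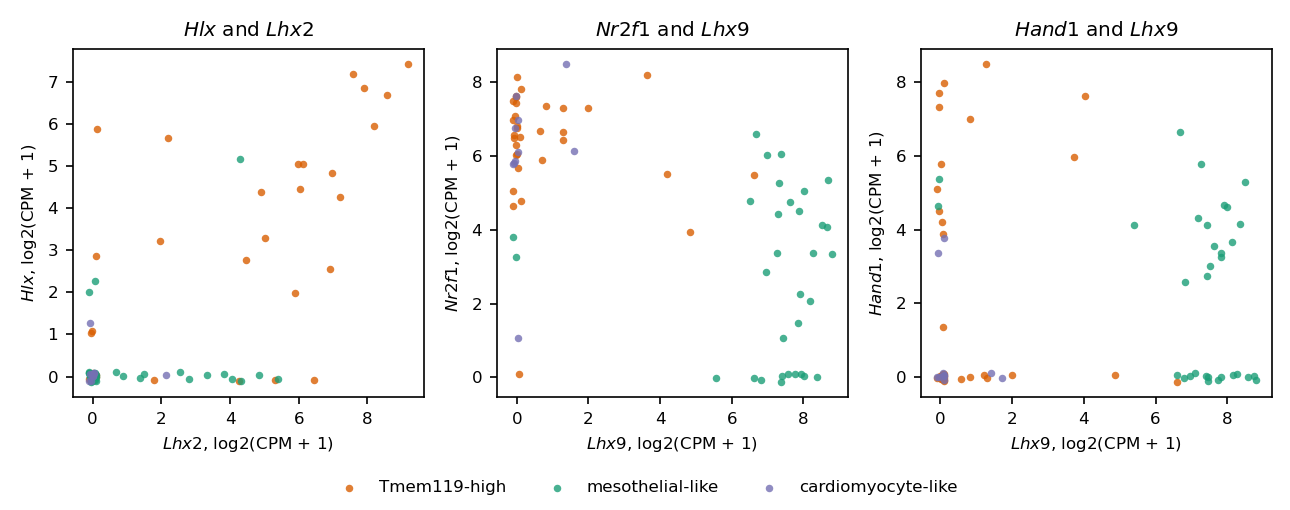
Levels in each of the 74 cells as log2(CPM + 1), for Hlx against Lhx2 (left), Nr2f1 against Lhx9 (middle) and Hand1 against Lhx9 (right), with points coloured by cluster and moved by a small random amount so that cells at 0 can be seen. Hlx is high where Lhx2 is high within the Tmem119-high cluster, Nr2f1 separates by cluster (rho of -0.08 and -0.03 inside the larger clusters), and Hand1 is present on both sides.

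The genes whose levels over the 74 cells were most like each of these factors were found among all 11511. For Hlx they were Tgfbr3 (rho 0.74), a TGF-beta co-receptor, Shisa3 (0.73), which lowers Wnt and FGF receptor signalling, and Mmp2 (0.62), a matrix metalloproteinase. Tgfbr3 was detected in 15 cells, 13 of them Hlx cells. Tgfbr3 also stood first for Foxf1 (0.59), before Galnt14 (0.57) and Hoxb2 (0.56), and 12 of its 15 cells were Foxf1 cells. Hoxb2, a homeobox gene, was detected in 62 cells, among them all 19 Foxf1 cells. The lowest rho with Hlx was that of Unc45b (-0.65), a myosin chaperone. For Lhx2, Hlx itself was the third most alike of all genes.

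For Hand1 the nearest genes were Pmp22 (0.66), a membrane protein, Col18a1 (0.62), a basement membrane collagen, and Lrrc3b (0.61). For Nr2f1 they were Rbm24 (0.64), a muscle RNA-binding protein, Meis3 (0.60), a homeobox factor, and Ppargc1a (0.60), a regulator of mitochondrial genes. Its lowest was Scx (-0.70), a bHLH factor of tendon progenitors. Hand2, Nr2f2 and Mab21l2 had weaker neighbours, Appbp2 (0.53), Tmpo (0.50) and Pgm1 (0.51). These 3 genes are detected in nearly all cells, so these rho values are over levels and not over detection.

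A few other genes known from the tissue followed the members. Of 16 septum transversum and liver mesenchyme genes, 4 had a rho of at least 0.3 with Foxf1, 3 with Hlx and 2 with Hand1, and 0 were at -0.3 or below with any of these 3. Of all genes, 2.99% were at 0.3 or above with Foxf1, 3.43% with Hlx and 2.69% with Hand1, and 1.66%, 2.40% and 1.27% were at -0.3 or below. The median rho of the 16 genes was 0.01 with Foxf1, 0.09 with Hlx and 0.05 with Hand1, so most of the list did not follow these factors. Alcam was the highest for each, at 0.45, 0.55 and 0.55, and Pdgfrb was the next for Foxf1 and Hlx, at 0.44 and 0.42. Tbx18 was the lowest for Foxf1 (-0.29) and Hlx (-0.26). Gli1, a hedgehog target, was the highest of the 5 hedgehog genes for Foxf1 (0.30), Hlx (0.29) and Hand1 (0.40). Tcf3, which encodes E proteins that pair with HAND factors, had 0.49 with Foxf1 and 0.47 with Hlx, and Id4 had -0.33 and -0.39. For Hand1 and Hand2 themselves 0 of the 9 bHLH genes reached 0.3, and the highest were Id3 (0.23) for Hand1 and Id2 (0.28) for Hand2. Among 7 retinoic acid genes, Crabp2, a retinoic acid binding protein, had 0.51 with Nr2f1 and Rarb, a retinoic acid receptor, 0.31.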

How the data were processed

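Polyadenylated RNA of 74 single cells was made into full-length libraries with SMART-Seq v4 and Nextera XT, per the labels. The deposited table holds estimated counts per gene as whole numbers. Kallisto and the build hg38 are named in the submitters' processing notes, although all identifiers are of mouse genes. Its version and its strand setting are not stated in any label. Of 30323 identifiers, 29936 were matched to symbols with the GRCm38 annotation (GENCODE), and the other 387 held 0.346% of counts. Hand2os1 and Fendrr had no entry under these names in the deposited counts, so they could not be analysed.

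Counts were divided by each cell's total (CPM). A gene was detected at 5 counts, and 11511 genes detected in 10% of cells were compared. A ratio of mean CPM past 2-fold was a description of size, with no test, because the labels give 1 group. Cells were clustered (Ward, 1000 variable genes, 10 components, 3 clusters) with scikit-learn 1.9.0 under Python 3.11.15, without the 9 genes, Lhx2 and Lhx9. No doublet caller was run. The ratio and the correlation were tested on simulated data. Named genes were the 9 members, Lhx2, Lhx9, their paralogues and overlapping genes, the 3 genes most and 1 least alike per member, extremes of 4 context lists and 5 leading genes per cluster. The members and lists were chosen with earlier results of these data known. Detection limits, scran 1.30.0 size factors, thinning, pseudocounts, filters, fold limits and other clusterings were tried as alternatives. Alternatives that left out each gene's highest cell, the split of Lhx2-only against Lhx9-only cells, and the values within clusters were chosen after seeing the data.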

Additional observations from a re-analysis of the deposited data

How the results depend on the processing

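No paired analysis was possible because the labels give 1 group and no test was made. No fold past 2-fold and no rho of at least 0.3 in size changed sign. Smaller values could change sign, and Nr2f2 with Lhx9 had a rho of -0.05 and a Pearson's r of 0.005. Of 569 values recomputed under the alternatives, 502 were counted as unchanged. That count rests on limits that differ by kind of value and are not given here, so it is no measure of stability. By kind, 6 of 27 detection shares, 0 of 27 mean levels and 1 of 96 co-detection ratios moved. So did 5 of 56 rho values and 7 of 90 counts of genes. Of 189 log2 folds, 4 became weaker and 2 stronger. Detection at 1 count gave Hlx in 33.8% of cells, Hand2 in 98.6%, Nr2f2 in 100% and Osr1 in 24.3%, and left 1 pair of genes with a co-detection ratio above 1.5, against 3, and 0 of the 7 genes past 2-fold lower with Lhx9, against 3. Hand2 was in 75.7% of cells at 10 counts and in 71.2% after thinning. Pearson's r of Hlx with Lhx2 was 0.69, against a rho of 0.57. With no filter, Osr1 and Foxf2 enter: 1 gene was higher with Lhx9, 1 lower in Lhx2-only cells (0 each with the filter) and 5 lower in the cardiomyocyte-like cluster (3 with it). At 1.5-fold, 1 gene was higher and 5 were lower with Lhx9, and 1 was higher in the cardiomyocyte-like cluster. The clusterings by k-means and on 2000 variable genes shared 30 and 32 of the 32 Tmem119-high cells. Cells of 1 sample cannot show how embryos differ, and a gene not detected at these depths is not shown to be absent.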
